A study of Saccharomyces cerevisiae with 31 samples.

Results

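The passage of an oscillating yeast culture into the part of its metabolic cycle near phase angle 0 was described from 10 of the 31 arrays of a single time course. Total RNA came from Saccharomyces cerevisiae strain CEN.PK122 in 1 aerobic continuous culture whose cycle, nominally 2 h long, was followed through dissolved oxygen, and an Affymetrix Yeast 2.0 array was hybridised for each sample, taken every 4 min. The 5 arrays called pre-burst here were at 302.64, 314.51, 326.37, 338.24 and 350.11 degrees (14.20 to 14.47 h). The 5 arrays called burst were at 5.93, 17.8, 29.67 and 41.54 degrees (12.53 to 12.73 h) and, from the start of the next cycle, at 362.01 degrees (14.53 h). Arrays were chosen by their labelled angle and time, not by their values. Both groups share strain, culture and aeration, and the labels do not say which angles are respiratory or reductive. The comparison therefore joins the end of the sampled cycle to its start, and the arrays of a group are successive samples of 1 culture, so that the spread within a group includes the drift across its angles. In bulk RNA of this kind a change in the share of cells in a state and a change in RNA per cell cannot be told apart.

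Yeast kept in slow, nutrient-limited growth can fall into step, so that the whole culture passes repeatedly through a phase of intense biosynthesis and a phase that resembles starvation or stress. Building ribosomes is the costliest task of a growing yeast cell: RNA polymerases I and III make ribosomal RNA, a large crew of assembly factors and modification enzymes shape it, and the target of rapamycin and protein kinase A pathways switch their genes together. The same pathways hold back genes for reserve carbohydrates, fatty acid oxidation, autophagy and stress protection while growth proceeds.

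Signal was measured for 10928 probe sets, of which 5498 were annotated to S. cerevisiae, and 5418 of these, for 5378 genes, were tested after 80 dim ones were left out. Array medians in the 10 arrays ran from 1056 (41.54 degrees) to 2142 intensity units, and the second dimmest array was at 314.51 degrees (1283). The array numbers in the labels fell in 2 sets of unstated meaning, and the spiked poly-A controls, relative to the hybridisation controls, were lower in the second set (log2 -5.18 to -4.76, against -4.19 to -3.57 in the first). The pre-burst group held 3 arrays of the first set and 2 of the second, and the burst group 1 (5.93 degrees) and 4, so the comparison was also fitted with the set as a block. ACT1, the actin gene, differed by -0.02 ± 0.05 (log2, SE, n = 5 and 5 arrays).

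Entry into the burst touched much of the transcriptome. In limma, with Benjamini-Hochberg adjustment, 1813 probe sets (33.5% of those tested) were higher and 1817 (33.5%) lower at an adjusted p under 0.05. At least 2-fold differences were found for 313 higher (5.78%) and 301 lower (5.56%) probe sets. The 5 burst arrays lay wholly above the 5 pre-burst arrays for 1429 probe sets (26.4%) and wholly below them for 1462 (27.0%). These counts cover all probe sets tested, called or not. Counts of higher and lower genes depended on the scale: with the deposited intensities left unnormalised, which moved the median difference over all probe sets from 0.01 to -0.25, at least 2-fold differences were found for 3.41% higher and 10.2% lower, and on the hybridisation control scale for 3.41% and 10.1%. The array at 14.53 h on its own against the pre-burst arrays gave 0 calls at either size, with 873 higher and 968 lower probe sets at an unadjusted p under 0.05 in limma. Of 41 gene lists, the count of members called in the leading direction fell by over 1.5 times in 27 on the deposited scale, 6 on the hybridisation control scale, 9 with median centring, 6 with the array number set as a block and 7 without the dimmest array of each group. With fewer arrays it fell that far in 35 lists within the second array number set (2 against 4 arrays), 39 within the first (3 against 1) and 41 for 14.53 h alone. Within the second set 62 of the 64 40S assembly genes passed as higher and 3 of the 26 beta-oxidation genes as lower, with medians of 1.20 and -1.59; within the first set 40 and 16 passed, with medians of 1.07 and -0.54.

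**Figure D1:**
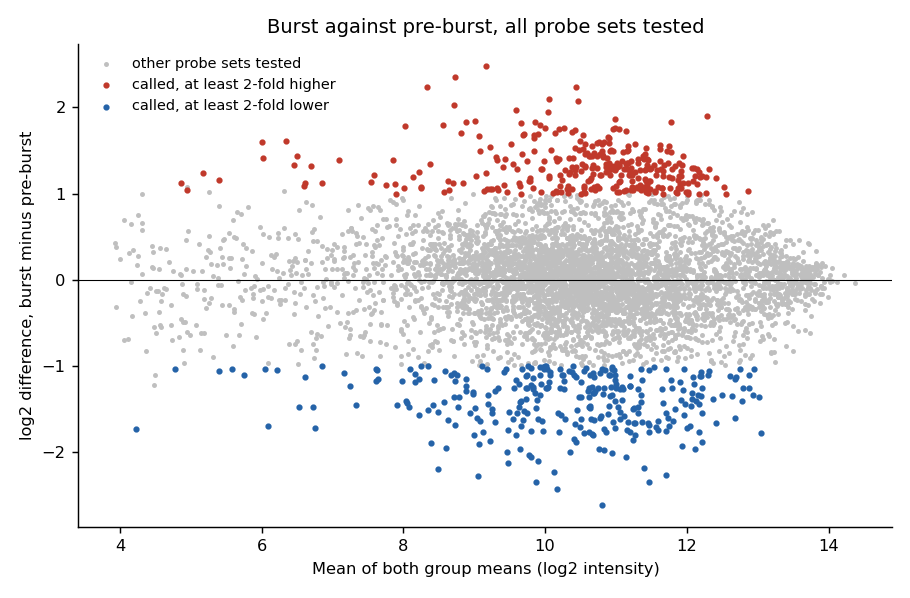
Each point is a probe set: the horizontal axis is the mean of both group means (log2 intensity), the vertical axis the log2 difference, burst minus pre-burst. The 313 probe sets called at least 2-fold higher (red) and the 301 called at least 2-fold lower (blue) reach above 2 and below -2.

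The samples on either side of the join were close. Less a full turn, their angles were also nearer to each other than those of neighbouring arrays. The array at 362.01 degrees differed from the one at 5.93 degrees, taken 2 h earlier, by a median of 0.06 log2 over all tested probe sets, in size, against 0.06 to 0.20 between neighbouring arrays 4 min apart. Over all tested probe sets 24 differed by over 1 log2 between these arrays, among them that of the stationary-phase gene SPG1, singled out after its values were seen, at 9.00 (362.01 degrees) and 10.36 (5.93 degrees).

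Genes of ribosome assembly rose together. Of 64 tested genes for 40S assembly and the small subunit processome, all 64 were higher and 52 at least 2-fold, with a median log2 difference of 1.28 and a range of 0.69 to 1.74. For the helicase gene DHR2, log2 intensities were 9.12, 9.22, 9.50, 9.72 and 10.22 in the pre-burst arrays in order of angle, and 10.83 (362.01 degrees), 10.88, 11.26, 11.81 and 11.67 (5.93 to 41.54 degrees) in the burst arrays. Every burst array lay above every pre-burst array, and the difference was 1.74 ± 0.25 (SE, n = 5 and 5; adjusted p = 0.000773). DIM1, the dimethylase of 18S rRNA, differed by 1.73 ± 0.26 (SE; adjusted p = 0.000773).

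Among 76 genes for 60S assembly and export, 75 were higher, 57 of them at least 2-fold, with a median of 1.15; REH1, which acts in late cytoplasmic maturation, was lower (-0.12 ± 0.05, SE; adjusted p = 0.0456, and 0.121 with the array number set as a block). The DEAD-box helicase gene DBP2 had log2 intensities of 10.25, 10.50, 10.79, 11.19 and 11.56 before the burst and 12.22, 12.45, 12.86, 13.00 and 12.93 in it, burst values here and below being given in the order 362.01, 5.93, 17.8, 29.67 and 41.54 degrees. The groups did not overlap, and the increase began among the pre-burst arrays; the difference was 1.83 ± 0.25 (SE; adjusted p = 0.000773). DBP7, another 60S helicase gene, differed by 1.76 ± 0.24.

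The machinery that makes and processes stable RNA moved with the assembly factors. All 25 tested RNA polymerase I and III genes were higher, 7 at least 2-fold, with a median of 0.88. RPA49, a polymerase I subunit, rose from 10.57, 10.73, 11.03, 11.31 and 11.63 to 12.14, 12.14, 12.56, 12.62 and 12.62, without overlap (1.36 ± 0.20, SE; adjusted p = 0.000773), and RPA43 by the same 1.36. Of 49 tRNA and rRNA modification enzymes 46 were higher and 1, the tRNA-His guanylyltransferase gene THG1, lower (-0.15), with a median of 0.82; the rRNA methyltransferase gene BMT2 (1.82 ± 0.22) and the dihydrouridine synthase gene DUS3 (1.68 ± 0.26) led them. For box C/D and H/ACA snoRNP proteins, which guide rRNA modification, 15 of 16 were higher (median 0.77; SRP40 1.35, NAF1 1.33). Of 20 exosome and nuclear decay genes 18 were higher (median 0.71; AIR1, of a complex that marks RNA for the exosome, 1.22 ± 0.17), and XRN1, the main cytoplasmic 5′ to 3′ exonuclease, was lower (-0.21; adjusted p = 0.0260, and 0.0860 with the array number set as a block).

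Ribosomal protein genes themselves moved little. Of 127 tested cytosolic ribosomal protein genes 78 were higher, none lower and 0 at least 2-fold, with a median of 0.15; 25 were read by probe sets shared between gene copies, which cannot separate them. RPL22B (0.84 ± 0.14, SE; adjusted p = 0.000841) and RPL13A (0.57 ± 0.10) differed most among those that passed. Their count depended on the processing, being 107 with median centring (median 0.39), 51 with the array number set as a block, 47 without the 2 dimmest arrays and 5 on the deposited scale. Translation factors had 34 higher and 3 lower of 44 (median 0.40), and 19 of 21 cytosolic tRNA synthetase genes were higher (median 0.40). On the deposited scale 13 translation factors and 5 synthetase genes passed as higher. Over all probe sets 33.5% were called in each direction. The lysyl-tRNA synthetase gene KRS1 differed by 1.54 ± 0.38 (SE; adjusted p = 0.0052), but its groups overlapped: the highest pre-burst array was at 9.19 and the lowest burst array at 9.06.

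**Figure D2:**
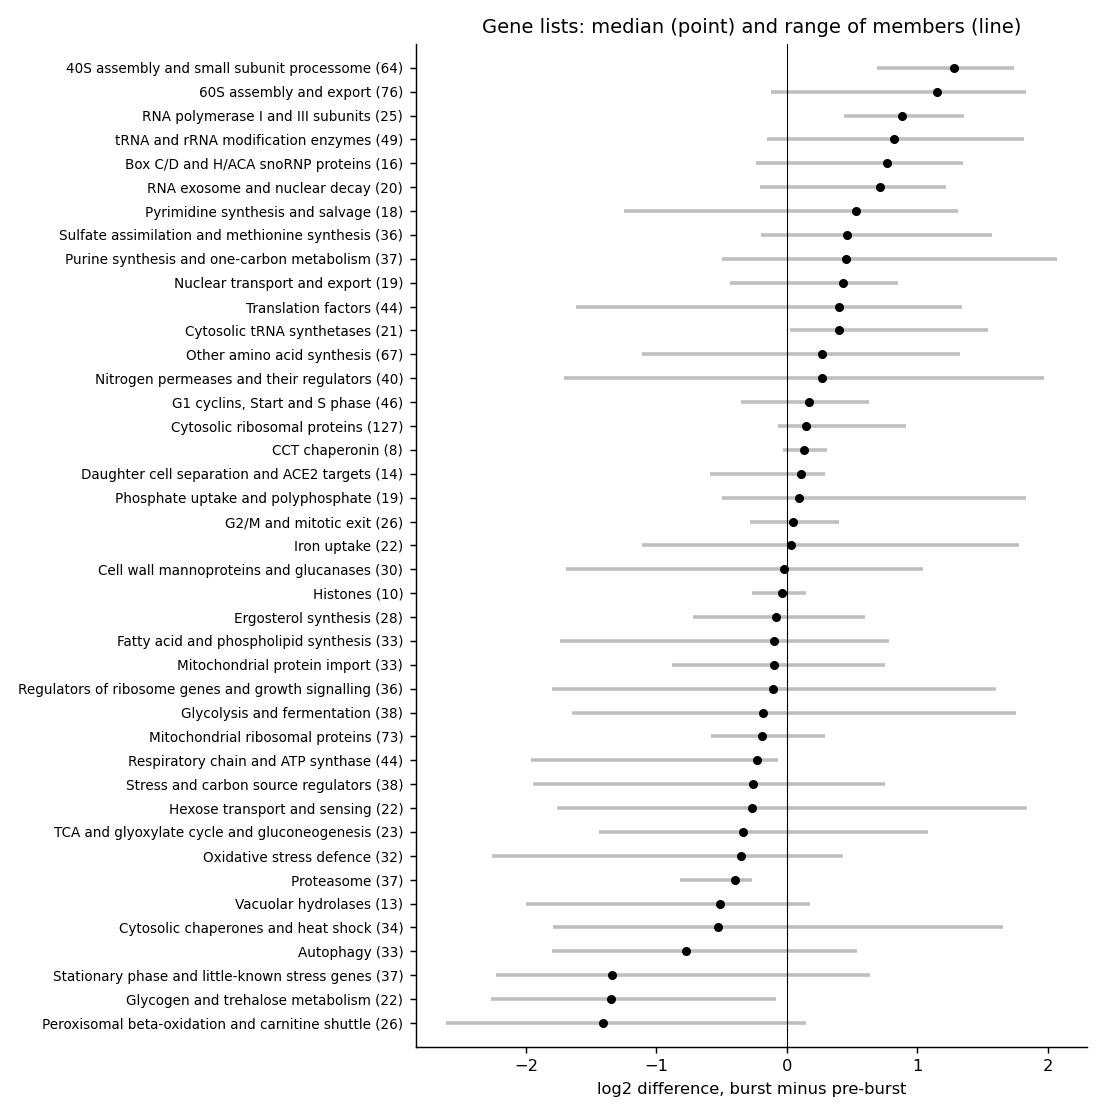
Each line spans the lowest to the highest member of a gene list, and the point is the median log2 difference, burst minus pre-burst; tested genes per list are in brackets. Ribosome assembly lists lie at the top (1.28 and 1.15) and peroxisomal beta-oxidation at the foot (-1.41).

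Many genes for the supply of nucleotides, nitrogen and sulphur were also higher. Of 37 purine and one-carbon genes 29 were higher (median 0.45), against 33.5% of all probe sets. On the deposited scale 12 passed as higher. IMD4, which encodes IMP dehydrogenase of guanine nucleotide synthesis, had log2 intensities of 8.92, 9.16, 9.31, 9.68 and 10.07 before and 10.79, 10.95, 11.68, 12.08 and 11.98 in the burst. The groups were apart and the 29.67 degree array was highest; the difference was 2.07 ± 0.30 (SE; adjusted p = 0.000773). The adenine deaminase gene AAH1 gave 10.70, 11.04, 11.13, 11.60 and 12.22, then 12.82, 13.03, 13.47, 13.55 and 13.34 (1.90 ± 0.27). It too climbed through both groups without overlap. Of 18 pyrimidine genes 13 were higher (7 on the deposited scale) and 3 lower (median 0.53). URA7 (CTP synthase, 1.29) and FUR1 (uracil salvage, 1.31) were up. URA10 (-1.25), YNK1 (-0.85) and URA8 (-0.70), a second CTP synthase, were down.

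Of 40 nitrogen permease and regulator genes 25 were higher (9 on the deposited scale) and 3 lower (median 0.27). Over all probe sets 33.5% were called in each direction. The allantoin pathway genes DAL1 (allantoinase, 1.97 ± 0.29) and DAL4 (allantoin permease, 1.75 ± 0.25) led the higher nitrogen genes. AGP2 (-1.71), ALP1 (-1.15) and PUT4 (-0.87) were the lower ones. AQR1, which encodes a plasma membrane exporter of drugs and amino acids, was the largest increase among called genes whose groups did not overlap: 7.28, 7.71, 7.79, 8.02 and 8.81 before, and 9.99, 10.40, 11.10, 10.97 and 9.53 in the burst. It peaked at 17.8 degrees and had turned down by 41.54 degrees, still above every pre-burst array (2.48 ± 0.35, SE; adjusted p = 0.000773). Sulphate and methionine genes had 25 higher (11 on the deposited scale) and 1 lower of 36 (median 0.46). The cysteine transporter gene YCT1 (1.57) and the methionine permease gene MUP1 (1.44) led the higher ones. Amino acid synthesis had 46 higher and 3 lower of 67 (median 0.27; LEU9 1.33, ARO7 1.23); 11 passed as higher on the deposited scale and 30 on the hybridisation control scale, and 0 as lower with the array number set as a block.

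Other leading increases included genes of unknown or little-known function: YNL162W-A (2.35 ± 0.31), YOR338W (2.24 ± 0.27), YMR244W (2.23 ± 0.45), GFD2 (2.10 ± 0.27), YBR238C (2.03 ± 0.30) and ATC1 (1.94 ± 0.24), along with the rRNA processing gene PXR1 (1.86 ± 0.23) and the hexose transporter gene HXT4 (1.84 ± 0.22). All had adjusted p-values of 0.00189 or lower in limma. Groups that did not overlap were a condition for naming the 12 largest increases and the 12 largest decreases, as was passing at an adjusted p under 0.05. IMD4, AAH1, AQR1 and TSL1 were among these, so their lack of overlap is not a separate test.

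Reserve carbohydrate genes fell. Of 22 genes of glycogen and trehalose metabolism 21 were lower, 17 at least 2-fold, with a median of -1.35. TSL1, a subunit of the trehalose synthase complex, had log2 intensities of 12.55, 12.51, 12.20, 11.99 and 11.58 before the burst and 10.81, 10.87, 9.88, 9.39 and 9.58 in it. No burst array reached the lowest pre-burst one (-2.06 ± 0.32, SE; adjusted p = 0.000773). GIP2, a regulatory subunit for the phosphatase that acts on glycogen synthase, was at -2.27 ± 0.37.

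Fatty acid breakdown genes fell as far. Of 26 genes of peroxisomal beta-oxidation and the carnitine shuttle 22 were lower, 17 at least 2-fold, with a median of -1.41. FAT3, needed for fatty acid uptake, was the largest decrease among such genes: 12.37, 12.32, 12.19, 12.07 and 11.60 before, and 10.78, 10.56, 9.25, 8.48 and 8.42 in the burst (-2.61 ± 0.46, SE; adjusted p = 0.00111). PXA1 (-2.18 ± 0.50) and PXA2 (-2.43 ± 0.51), which together form the peroxisomal fatty acyl-CoA importer, and the peroxisomal catalase gene CTA1 (-2.26 ± 0.50) fell with it. POX1, the acyl-CoA oxidase of the first step, stayed at 13.13, 13.08, 13.13, 12.98 and 12.91 before the burst and then went through 12.59, 12.51, 11.53, 10.23 and 9.58. Its fall was concentrated in the last 3 burst arrays; the difference of -1.76 ± 0.54 (adjusted p = 0.0148) missed the threshold with the array number set as a block (adjusted p = 0.0510), as did that of FOX2, the multifunctional enzyme of the next steps (-1.66 ± 0.51; adjusted p = 0.0149, and 0.0518 with the block).

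**Figure D3:**
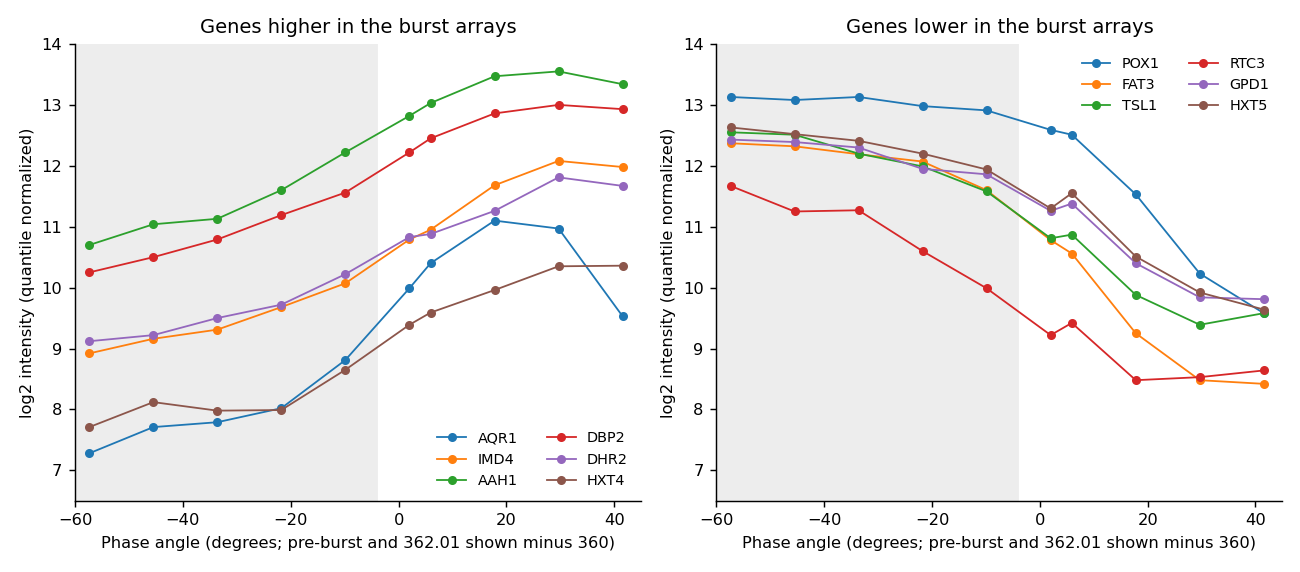
Log2 intensity of 6 higher (left) and 6 lower (right) genes in each of the 10 arrays against phase angle, with pre-burst angles and 362.01 shown minus 360; the shaded part holds the 5 pre-burst arrays. AQR1 goes from 7.28 to 11.10 and back to 9.53, and POX1 holds near 13 before the burst and ends at 9.58.

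Stress and stationary-phase genes had 34 lower and 1 higher of 37 (median -1.34), led by SOL4, a 6-phosphogluconolactonase gene (-2.23 ± 0.35), RTN2, a reticulon gene (-2.13 ± 0.33), and RTC3 (-2.10 ± 0.32); SNO1 was the higher one (0.64; adjusted p = 0.0326, and 0.0994 with the array number set as a block), with groups that overlapped. YMR206W (-2.34 ± 0.28), YIG1 (-2.34 ± 0.56) and YJL163C (-2.20 ± 0.34) completed the 12 largest decreases. Oxidative stress defence had 23 lower and 5 higher of 32 (median -0.35), with the glutathione peroxidase gene GPX1 at -1.76.

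Cytosolic chaperones had 25 lower and 6 higher of 34 (median -0.53). SSE2 (-1.79 ± 0.31), HSP30 (-1.75 ± 0.28) and HSP42 (-1.71), genes of stress-inducible chaperones or membrane proteins, were lower. The 6 higher ones included SSB1, SSB2, ZUO1 and SSZ1 (0.20 to 0.51), chaperones that sit on the ribosome (SSB2 missed the threshold with the array number set as a block, adjusted p = 0.115), and the Hsp90 cochaperone genes CPR7 (0.63) and CNS1 (1.66). The 8 subunits of the CCT chaperonin, which folds actin and tubulin, had 4 higher and 0 lower (median 0.13). As higher, 7 passed with median centring and 0 on the deposited and hybridisation control scales. Over all probe sets 33.5% were called in each direction.

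Genes for the recycling of proteins and organelles fell. All 37 tested proteasome genes were lower, over a narrow range of -0.82 to -0.27 (median -0.40); 23 passed with median centring and 10 on the deposited scale. RPN4, the transcription factor that drives proteasome genes, had log2 intensities of 12.55, 12.49, 12.56, 12.42 and 12.32, then 11.96, 11.77, 11.35, 11.31 and 11.83. It was lowest at 29.67 degrees and partly back by 41.54 degrees (-0.82 ± 0.13, SE; adjusted p = 0.000782). Of 33 autophagy genes 27 were lower and 1, ATG41, higher (median -0.77), with ATG7, the E1-like enzyme of autophagosome formation, at -1.80 ± 0.34, and ATG39, a receptor for nuclear envelope autophagy, at -1.67. Vacuolar hydrolases had 11 lower and 1 higher of 13 (median -0.51), with the RNase gene RNY1 at -2.00 ± 0.33.

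Median differences in the mitochondrial lists were small and negative after quantile normalisation, and some single genes fell further. Of 44 nuclear genes of the respiratory chain and ATP synthase 36 were lower and 0 higher (median -0.23), but with median centring 9 passed and the median was -0.02. Of 73 mitochondrial ribosomal protein genes 42 were lower and 2 higher (median -0.19), and 18 passed as lower on the deposited scale. The tricarboxylic acid, glyoxylate and gluconeogenesis list had 16 lower and 1 higher of 23 (median -0.34), the higher one being the malic enzyme gene MAE1 (1.08). As lower, 7 passed with the array number set as a block and 8 with median centring (median -0.12). SFC1, the mitochondrial succinate-fumarate carrier, was at -1.35 ± 0.45 (adjusted p = 0.0223, and 0.0730 with the block). STF2, a stabiliser of the ATP synthase inhibitor (-1.96 ± 0.28), and CYC7, the minor cytochrome c (-1.68 ± 0.27), led the respiratory list.

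Some related genes with overlapping roles went opposite ways; the pairs given here were picked for this after their values were seen, and how common such pairs are was not tested. HXT4 rose from 7.71, 8.12, 7.98, 7.99 and 8.65 to 9.39, 9.59, 9.96, 10.35 and 10.36 (1.84 ± 0.22). HXT5, a hexose transporter of slow-growing cells, fell from 12.63, 12.52, 12.41, 12.20 and 11.94 to 11.30, 11.55, 10.51, 9.92 and 9.64 (-1.76 ± 0.35). The groups were apart in both genes, with opposite sign.

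The glycolytic regulator enzymes split likewise: PFK27 rose by 1.76 ± 0.22 and PFK26, which makes the same regulator, fell by 1.48 ± 0.26. Genes for different steps of glycerol synthesis, not a pair with overlapping roles, also differed in sign. The dehydrogenase gene GPD1 fell by 1.65 ± 0.32 and the phosphatase gene GPP2 rose by 1.26 ± 0.14. Over the whole glycolysis and fermentation list 20 were lower and 7 higher of 38 (median -0.18). With median centring 11 were lower and 8 higher (median 0.05). After quantile normalisation 33.5% of all probe sets were called in each direction.

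In translation, ANB1, the eIF5A gene of low-oxygen cells, rose by 1.34 ± 0.27 and HYP2, its aerobic counterpart, fell by 0.13 ± 0.04. The helicase gene DED1 rose by 0.52 ± 0.10 and its paralogue DBP1 fell by 1.62 ± 0.26. The elongation factor 3 gene YEF3 rose by 0.33 ± 0.08 and HEF3 fell by 1.38 ± 0.31. In growth signalling, RAS1 rose by 1.31 ± 0.18 and RAS2 fell by 0.80 ± 0.11, and the kinase A subunit gene TPK3 rose by 0.66 ± 0.09 while TPK2 fell by 1.51 ± 0.24. All of these passed in limma (adjusted p of 0.0143 or lower), and HYP2 missed the threshold with the array number set as a block (adjusted p = 0.0505).

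Of 36 regulators of ribosome genes and growth signalling 10 were higher and 16 lower (median -0.11), near the 33.5% in each direction over all probe sets, with TOD6, a repressor of ribosome assembly genes, at 1.60 ± 0.23 and IFH1, an activator of ribosomal protein genes, at 1.31, and the repressor gene XBP1 at -1.80 ± 0.31. TOD6 itself was at 9.43, 9.68, 9.81, 10.25 and 10.64 before and 11.18, 11.30, 11.64, 11.86 and 11.83 in the burst, without overlap, like the assembly genes. Of 38 stress and carbon source regulators 23 were lower and 6 higher (median -0.26), led by USV1 (-1.95 ± 0.31) and CAT8, an activator of gluconeogenesis genes (-1.55 ± 0.35).

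Differences in the cell cycle lists were small, and over all probe sets 33.5% were called in each direction. G1 and S phase genes had 22 higher and 7 lower of 46, with a median of 0.17; on the deposited scale 0 passed as higher and 2 as lower, and on the hybridisation control scale 3 and 13, with a median of -0.10 on both. In this list the G1 cyclin gene CLN2 was at 0.61 ± 0.15 and the replication gene MCM10 at 0.63 ± 0.14. G2/M genes had 8 higher and 7 lower of 26 (median 0.05), but 4 and 5 with the array number set as a block and 0 and 4 on the deposited scale (median -0.27), and 14 daughter cell separation genes had 0 higher and 2 lower. Of 10 histone genes 1 was higher and 2 lower. The linker histone gene HHO1 was at -0.27 ± 0.07 and the variant HTZ1 at -0.19 ± 0.06 (adjusted p = 0.0231, and 0.0555 with the block).

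Counts in the remaining lists are to be read against the 33.5% of all probe sets called in each direction. Phosphate uptake had 9 higher and 3 lower of 19 (PHO3 1.83, PHO90 1.20), and iron uptake 8 higher and 10 lower of 22 (FET4, a low-affinity transporter, 1.78; HMX1, a haem oxygenase, -1.11). Both medians (0.09 and 0.03) were below 0 on the deposited scale (-0.12 and -0.34). Ergosterol synthesis had 6 higher and 12 lower of 28, fatty acid and phospholipid synthesis 7 and 15 of 33 (GPT2 -1.74, INO2 0.78), mitochondrial import 7 and 11 of 33 (4 and 7 with the array number set as a block), cell wall proteins 7 and 6 of 30 (YGP1 -1.69, UTR2 1.04), hexose transport and sensing 3 and 11 of 22 (3 and 7 with the block, 3 and 5 without the dimmest array of each group), and nuclear transport 14 and 2 of 19 (SXM1 0.85).

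Within-group trends showed when the changes ran. A line fitted across the 5 pre-burst arrays (47.47 degrees) passed for 710 probe sets going up (13.1%) and 676 going down (12.5%), and a line across the 5 burst arrays (39.53 degrees, 362.01 taken as the lowest angle) for 974 up (18.0%) and 886 down (16.4%). The first count rested on the array at 350.11 degrees, without which 1 probe set passed and 1275 had an unadjusted p under 0.05 in limma. The second, 1860 in all, was 537 with the array number set as a block, the same fit as leaving out the 5.93 degree array, and 486 without the 362.01 degree array.

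The ribosome assembly genes were already rising before the burst. The 64 genes of the 40S list had a median trend of 0.82 log2 across the pre-burst arrays, with 62 passing upward, and 0.63 across the burst arrays, with 46 passing. The 60S list had medians of 0.81 and 0.58. For all probe sets the medians were -0.02 and 0.08. The largest upward trends before the burst were those of KRS1 (1.52), GFD2 (1.45) and AAH1 (1.44), and the largest downward ones those of SPG1 (-1.71), RTC3 (-1.61) and FMP45 (-1.53).

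The fall of the peroxisomal genes lay mostly within the burst arrays. Their list had a median trend of -0.27 across the pre-burst arrays, with 9 of 26 passing downward, and -2.45 across the burst arrays, with 22 passing. FAT3 (-0.72) and PXA2 (-0.86) were among those that fell before the burst. The steepest falls within the burst were those of YIG1 (-3.28), POX1 (-3.22 ± 0.18, SE) and FOX2 (-3.04 ± 0.17). YMR244W (2.50), INA1 (2.33) and EFM6 (2.13) had the steepest rises.

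To compare the slopes themselves, both were fitted in 1 limma model per 10 degrees, a test added after the data had been seen. The slope in the burst was above the one before it for 433 probe sets (7.99%) and below it for 518 (9.56%). These 951 probe sets were 350 without the 302.64 degree array, 465 without the 350.11 degree array, 562 without the 5.93 degree array and 616 without the 362.01 degree array. It was below for 22 of the 26 peroxisomal genes, whose median slope went from -0.06 to -0.62, for 20 of the 37 proteasome genes (-0.02 to -0.13) and for 11 of the 22 glycogen and trehalose genes (-0.11 to -0.32). In the 40S list it was above for 0 and below for 1 of 64 (0.17 to 0.16). For POX1 the difference between slopes was -0.77 (adjusted p = 0.000107), and -0.77 with the array number set as a block (adjusted p = 0.00038). Of 14 daughter cell separation genes 10 had a higher slope in the burst (median -0.05 before, 0.11 in it).

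**Figure D4:**
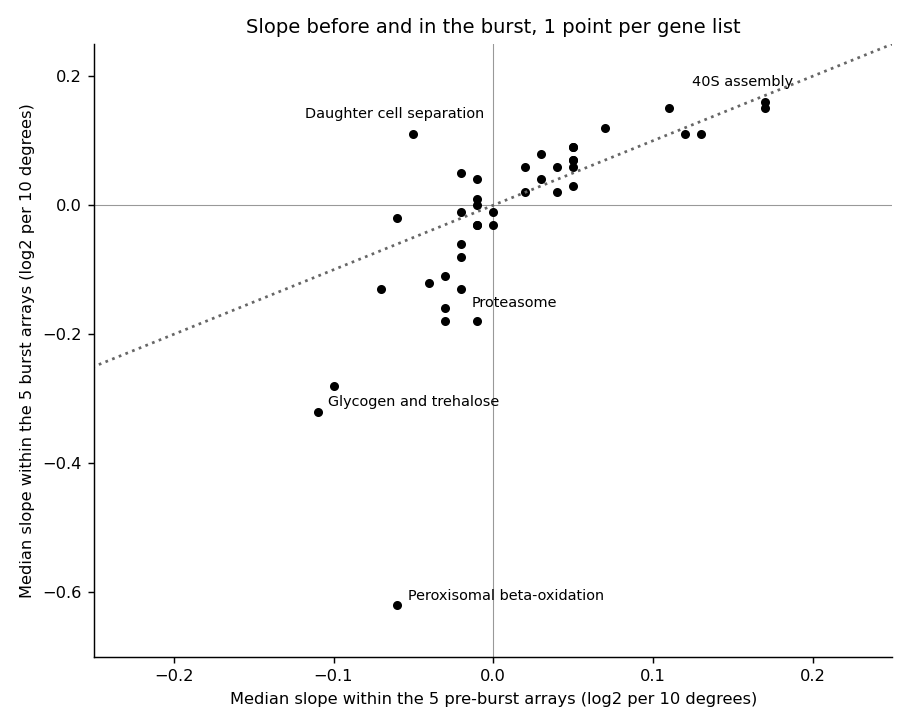
Each point is 1 of 41 gene lists: median slope of its members within the 5 pre-burst arrays (horizontal) and within the 5 burst arrays (vertical), both in log2 per 10 degrees; the dotted line marks equal slopes. The 40S list lies near the line (0.17 and 0.16), and peroxisomal beta-oxidation far below it (-0.06 and -0.62).

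In the whole cycle, of the 313 higher probe sets, 311 had their highest value of all 31 arrays in the burst, 218 of them at 29.67 degrees; of the 301 lower ones, 255 had their lowest value there and 46 in the next window, 39 of these at 53.41 degrees. These counts describe genes selected on the same arrays and test nothing. The median of the 40S list, relative to each gene's mean over the 10 arrays, went from -1.0 at 302.64 degrees to 0.94 at 29.67 degrees, and that of the peroxisomal list from 0.80 to -2.07 at 41.54 degrees and -2.26 at 53.41 degrees.

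**Figure D5:**
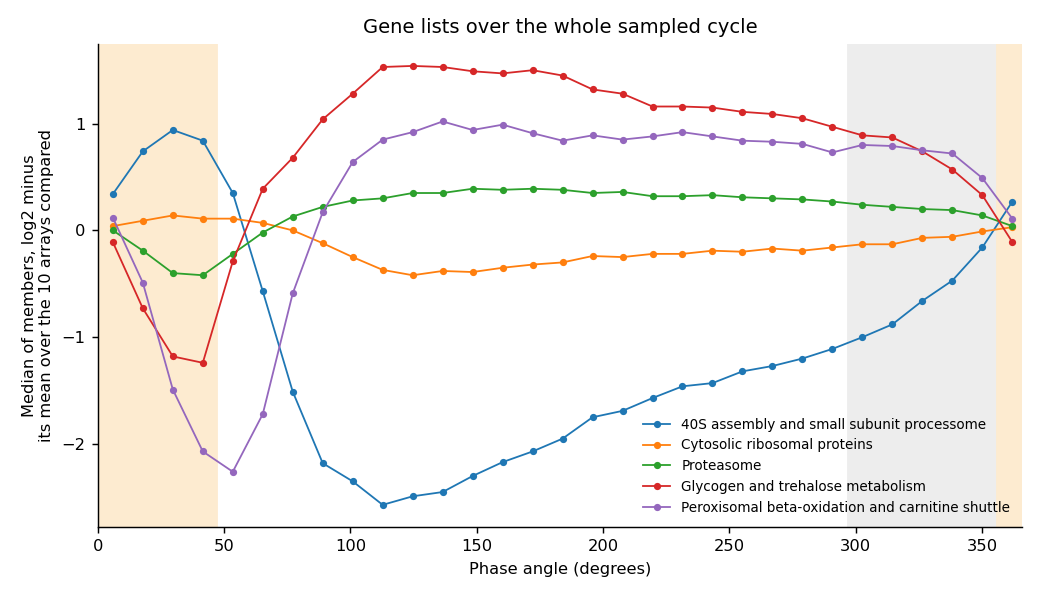
Median log2 intensity of 5 gene lists, relative to each gene's mean over the 10 arrays compared, in all 31 arrays against phase angle; grey marks the pre-burst and orange the burst arrays. The 40S list peaks at 0.94 (29.67 degrees) and the peroxisomal list reaches -2.26 (53.41 degrees).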

How the data were processed

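Per the labels, total RNA was primed with oligo(dT), labelled with biotin and hybridised to Yeast 2.0 arrays. The authors deposited 1 linear intensity per probe set and array, and the submitters' processing notes name GCOS, the scanner software; which version, scaling and masks were used is not given in the sources used here. Genes were named from the platform annotation, with 12 symbols updated from a RefSeq table. Here log2 intensities of S. cerevisiae probe sets were quantile normalised over 31 arrays, and those with a mean at or below the 95th percentile of probe sets for other organisms (log2 3.88) were left out. limma 3.58.1 in R 4.3.3 compared 5 with 5 arrays and fitted trends, with Benjamini-Hochberg adjustment over 5418 probe sets; scripts were tested on simulated data, and plots were drawn with matplotlib. Named genes were the 12 largest increases and decreases with non-overlapping groups, 2 per list, 3 per trend and direction, and ACT1, plus list members and pairs singled out afterwards. The groups and 41 gene lists were chosen with earlier results of these data known. Replicates are successive samples of 1 culture, treated as independent in the tests. The p-values set differences against the spread among these samples and do not cover other cultures. The number of arrays limits precision. Promoter sequences were not analysed here.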

Additional observations from a re-analysis of the deposited data

Results flagged for a closer look

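Among the 5 pre-burst and the 5 burst arrays of each of 102 named genes, 1 group held an array far from the others. A rate of about 1 in 20 groups would hold for independent, normally distributed values, which these successive samples need not be. CCT2, a chaperonin subunit gene, was at 12.98 log2 in the burst array at 41.54 degrees, the dimmest of the 10, and the nearest other burst array was at 12.76. The cause was not tested.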

How the results depend on the processing

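The shares called at least 2-fold (5.78% higher, 5.56% lower) stayed within 1.5 times of these values with median centring, either filter, the array number set as a block, all 31 arrays in 1 fit, the second array number set alone, the 12.53 to 12.73 h arrays alone and the robust variance model. Without the dimmest array of each group, a choice made after seeing the data, they were 4.43% and 4.19%. They were 3.41% and 10.2% on the deposited scale, 3.41% and 10.1% on the hybridisation control scale, 2.66% and 1.7% within the first array number set (3 against 1 array, the lone one assumed to vary like the others), and 0 and 0 for 14.53 h alone, with 873 and 968 at an unadjusted p under 0.05 in limma. Leaving out 1 array gave 4.72% to 6.55% higher and 4.52% to 6.72% lower. In counts at any size, 1813 and 1817 became 480 higher (deposited scale), 900 higher (control scale), 734 and 525 (second set), 419 and 456 (first set) and 0 and 0 (14.53 h alone), and 1596 to 1889 and 1624 to 1847 without 1 array. The 1386 pre-burst trends became 76 and 658 on these scales, and 1 to 1102 without 1 array, the lowest without 350.11 degrees. The 1860 burst trends became 537 with the set as a block, and 486 to 2253 without 1 array. The 951 slope differences became 350 to 1307 without 1 array. Of single genes, CTS1 turned to 0.03 with median centring, and FKH1 to -0.08 and KIN3 to -0.06 on both the deposited and control scales; all 3 then missed the threshold. The causes were not tested, beyond the smaller number of arrays where arrays were left out. No paired analysis was possible because the labels give no replicate numbers that the groups share. The planned promoter motif description was not run. Depth cannot be stated for arrays; dim probe sets limit small changes.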
